A study of Mus musculus with 16 samples.

Results

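Classical estrogen target genes were followed here through 6 members: Greb1, Rasd1, Ramp3, Ctsd, Lcn2 and Ltf. They were found by symbol among the probes of the array, which gave 8 probes of 41174. Each gene was represented by its brightest probe, so that they made up 6 of the 24435 genes and other features tested. The samples were whole ovaries collected at an age of 1 year, whose total RNA had been hybridised with Cy3 label to 16 single-colour Agilent mouse arrays, 4 per group. The series asks about the roles of estrogen receptor α (ERα, gene Esr1) and ERβ (gene Esr2) in granulosa cells of aged ovaries. The control ovaries carried one allele of each receptor, Ex3aERKO is the ERα knockout, Ex3bERKO the ERβ knockout and Ex3abERKO the knockout of both. The labels do not say how many alleles of the other receptor the single knockouts carry, nor whether the 4 samples of a group were separate animals. The p-values therefore reflect the spread among these samples, which may be technical.

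ERα and ERβ are nuclear receptors that bind estradiol and then DNA at estrogen response elements, paired inverted arms of the sequence GGTCA, or reach genes through other factors such as Sp1 and AP-1. In the ovary ERβ is found mainly in granulosa cells and ERα mainly in theca, interstitial and surface cells. The members are textbook examples of estrogen-induced genes from breast cancer cells and uterus. Greb1 is an estrogen receptor cofactor, Rasd1 a small Ras-like G protein that glucocorticoids also induce, and Ramp3 an accessory protein that gives the calcitonin receptor-like receptor its response to adrenomedullin. Ctsd (cathepsin D) is a lysosomal aspartic protease, Lcn2 (lipocalin 2) a secreted protein that binds iron-carrying siderophores, and Ltf (lactotransferrin) a secreted iron-binding protein.

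The probes decide which transcript each value reports, so the central 30 bases (positions 16 to 45 of the 60-base probe) of each representative probe are shown first, in lower case with no part marked.
Greb1: ccaaaggaacattttaactgtaaaggctgg
Rasd1: aaagtcaaatcggattcctggactagcggt
Ramp3: tgtgggctggagctgtggcttgtttagccc
Ctsd: cagaagcaaaactatgaacctggggggtta
Lcn2: gacttctgaaaacaagcaatacttcaaaat
Ltf: taaaaccaaaaaccttctgttcaatgacaa
On the mouse build of the array files, mm7, counted from 1, these probes lie at chr12:16726515-16726574 on the minus strand (Greb1), chr11:60045278-60045337 on the minus strand (Rasd1), chr11:6629300-6629359 on the plus strand (Ramp3), chr7:138803337-138803396 on the minus strand (Ctsd), chr2:32392828-32393072 on the minus strand (Lcn2) and chr9:110738071-110738130 on the plus strand (Ltf). The Lcn2 interval spans 245 bases, longer than the 60-base probe. Exons and untranslated regions were not assigned, because no annotation of that build was used. Ctsd and Ltf each had a further probe.

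The stretch before each gene's start is shown because estrogen receptors act on genes from DNA, at response elements or through other factors. RefSeq promoter sequences of build GRCm38.p6 were matched for 5 of the 6 members, with 2 starts for Greb1; Rasd1 was not matched. The 100 bases before the start are given 5′ to 3′ on the gene's strand, with each single arm of the estrogen response element (GGTCA, or TGACC on the other strand) in capitals.
Greb1, chr12:16800887-16800986, minus strand: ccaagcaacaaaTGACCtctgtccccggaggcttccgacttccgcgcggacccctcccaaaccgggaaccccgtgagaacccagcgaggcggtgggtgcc
Ramp3, chr11:6658433-6658532, plus strand: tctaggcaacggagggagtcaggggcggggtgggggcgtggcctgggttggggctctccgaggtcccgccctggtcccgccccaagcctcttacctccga
Ctsd, chr7:142387828-142387927, minus strand: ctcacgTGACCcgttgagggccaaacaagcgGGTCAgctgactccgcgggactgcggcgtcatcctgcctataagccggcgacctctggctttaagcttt
Lcn2, chr2:32387740-32387839, minus strand: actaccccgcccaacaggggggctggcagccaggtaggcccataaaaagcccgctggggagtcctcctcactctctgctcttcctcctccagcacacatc
Ltf, chr9:111019192-111019291, plus strand: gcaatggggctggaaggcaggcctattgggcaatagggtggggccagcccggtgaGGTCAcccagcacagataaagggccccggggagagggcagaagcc
Over the 250 bases before the start, both strands read, none of the 6 member starts held the full element GGTCANNNTGACC, which 0.0639% of 32851 RefSeq promoters held. The single arm occurred 3 times before Ctsd, 1 time before Ltf, 1 and 2 times before the starts of Greb1, and not before Ramp3 or Lcn2, against 35.2% of all promoters with at least 1. Of the 3 arms before Ctsd, 2 overlapped the E-box CACGTG, the core of the motif of lysosomal genes, which 6.02% of promoters held. The GC box GGGCGG, the letters of Sp1 sites, occurred 3 times before Ramp3, 2 times before Ctsd and 1 time before Lcn2, against 32.7% of promoters with at least 1. The AP-1 letters TGANTCA occurred before no member start and in 6.75% of promoters. A match of letters is a description, and a missing match says only that these letters are not in this window.

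Levels are given as the log2 of the array's processed signal relative to its own 75th percentile over non-control spots, so that 0 is the level of that percentile. The 75th percentile ranged from 1211 to 1806 signal units and 80.4% to 87.6% of spots were well above background. All 8 member probes were well above background on all 16 arrays and none was saturated. Esr1 lay between -3.66 and -1.89 in Ex3aERKO and between -2.11 and -1.04 in Ex3abERKO, below its range of -0.32 to 0.20 in the control. Esr2 lay between -2.54 and -1.61 in Ex3abERKO against -0.33 to 0.34 in the control, whereas its Ex3bERKO range of -0.58 to 1.00 overlapped the control. Whether these probes lie in the deleted parts was not examined, so they do not check the labels. Granulosa, theca and oocyte markers were measured on all 16 arrays, and their levels differed between groups, as given beside the members. An earlier analysis of the same data had set apart 3 arrays: Ex3aERKO 2, highest in liver genes, Ex3abERKO 2, highest in oviduct genes, and control 4, highest in erythroid genes. Results that change without these 3 are given below. The arrays lay on 4 slides, and arrays of the same slide deviated together, with a median correlation of their deviations of 0.283 against -0.07 for arrays of different slides. In whole ovary, fewer cells of a type and less RNA per cell cannot be told apart.

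With both receptors knocked out, 5 of the 6 members changed, but in both directions: Greb1, Rasd1 and Ramp3 fell, Ctsd and Lcn2 rose. Ltf was the exception, with no call in any comparison. In Ex3aERKO, Ctsd and Lcn2 rose and Ramp3 fell. In Ex3bERKO no member passed the test. These counts come from limma with Benjamini-Hochberg adjustment over all features at 0.05, with 1 mean per group.

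The background to these counts is the share of all features called. It was 22.3% for Ex3abERKO against control (10.6% higher and 11.7% lower), where 2 members of 6 were higher and 3 lower. For Ex3aERKO against control it was 8.01% (3.82% higher and 4.19% lower), where 2 members were higher and 1 lower. For Ex3bERKO against control it was 1.01% (0.385% higher and 0.626% lower), where no member was called (0 of 6, with 3 at an unadjusted p under 0.05 in limma: Ramp3, Lcn2 and Ctsd). For Ex3abERKO against Ex3bERKO it was 16.6% (8.23% higher and 8.39% lower), where Ctsd was higher and Greb1, Rasd1 and Ramp3 were lower. For Ex3abERKO against Ex3aERKO it was 7.73% (4.4% higher and 3.33% lower), where Ctsd was higher and Greb1 and Rasd1 were lower. Between the single knockouts, Ex3aERKO minus Ex3bERKO, it was 2.31% (0.643% higher and 1.67% lower), with no member called (0 of 6, with Ramp3 and Lcn2 at an unadjusted p under 0.05 in limma). The interaction, (Ex3abERKO minus Ex3aERKO) minus (Ex3bERKO minus control), asks whether the step from Ex3aERKO to Ex3abERKO differs from the step from control to Ex3bERKO. It was called for 3.54% of features (1.81% positive and 1.73% negative) and for 3 of 6 members, Greb1, Rasd1 and Lcn2, each with a negative value. The 3 comparisons with control share the same 4 control arrays. The members had been picked with results of these data known, so the excess over the background is a description.

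**Figure D1:**
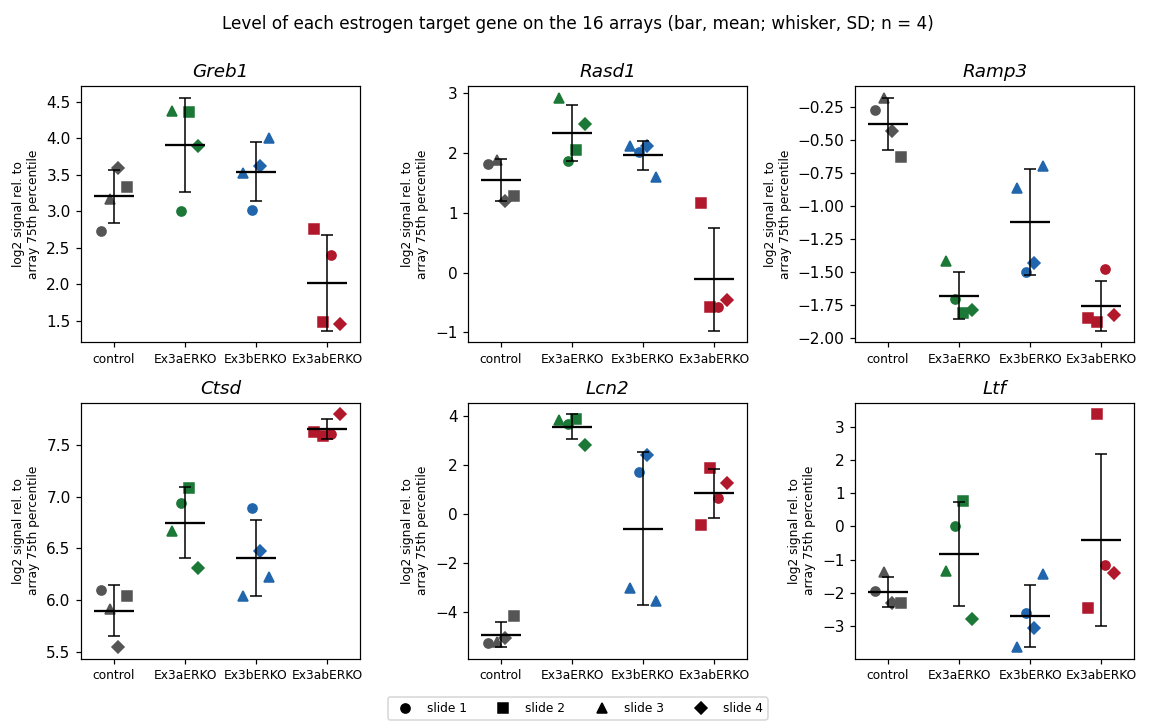
Level of each member (log2 signal relative to the array's 75th percentile) on the 16 arrays, by group; marker shapes give the slide, bars the group mean and whiskers the SD of 4 arrays. Rasd1 is lowest in Ex3abERKO on all 4 arrays, Ctsd is highest there on all 4, and Lcn2 in Ex3bERKO splits into arrays near -3 and arrays near 2.

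Greb1 and Rasd1 shared a pattern: both fell in Ex3abERKO and neither was called in a single knockout. Greb1 levels on arrays 1 to 4 were 2.73, 3.17, 3.59 and 3.34 for control, 4.37, 3.00, 4.36 and 3.90 for Ex3aERKO, 3.53, 3.02, 3.62 and 4.01 for Ex3bERKO and 2.76, 1.48, 2.40 and 1.46 for Ex3abERKO. Every Ex3abERKO array lay below all single knockout arrays, while Ex3abERKO 1, at 2.76, was just above control 1. Greb1 fell by 1.88 on the log2 scale from Ex3aERKO to Ex3abERKO (3.69-fold, SE 0.36, limma adjusted p = 0.00645). From Ex3bERKO it fell by 1.52 (2.87-fold, limma adjusted p = 0.0106), and from control by 1.18 (2.27-fold, limma adjusted p = 0.0278). The interaction for Greb1 was -2.22 ± 0.50 (SE, limma adjusted p = 0.0255).

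The Greb1 calls against control and in the interaction were close to the threshold. Without control 2, 3 or 4 or Ex3abERKO 2 or 4, each alone, the fall from control was between -1.19 and -0.99, with limma adjusted p from 0.0534 to 0.0866. Without the 3 arrays named above it was -0.95 (limma adjusted p = 0.102), and with median scaling -1.13 (0.0516). The interaction was -2.20 to -2.04 without control 1, Ex3aERKO 1 or 3, Ex3bERKO 3 or 4, or Ex3abERKO 2 or 4, each alone, with limma adjusted p from 0.0505 to 0.0571. The fall from Ex3aERKO was not called in a fit of those groups alone (limma adjusted p = 0.0523). The rises of Greb1 in the single knockouts, 0.70 ± 0.36 in Ex3aERKO (limma adjusted p = 0.286) and 0.34 ± 0.36 in Ex3bERKO (0.888), were within the spread.

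Rasd1 had the clearer fall. Its levels on arrays 1 to 4 were 1.82, 1.89, 1.20 and 1.29 for control, 2.92, 1.87, 2.05 and 2.48 for Ex3aERKO, 2.11, 2.02, 2.12 and 1.60 for Ex3bERKO and 1.17, -0.58, -0.58 and -0.46 for Ex3abERKO. All 4 Ex3abERKO arrays lay below every other array, and Ex3abERKO 1 was far closer to the control than its 3 companions. The fall from control was -1.66 ± 0.36 (3.16-fold, limma adjusted p = 0.00443). From Ex3aERKO it was -2.44 (5.42-fold, limma adjusted p = 0.0016) and from Ex3bERKO -2.07 (limma adjusted p = 0.00187). The interaction was -2.85 ± 0.51 (limma adjusted p = 0.00735). These 4 Rasd1 calls held in all alternatives tried, with a largest fall from control of -2.09. In the single knockouts Rasd1 differed from control by 0.78 ± 0.36 (Ex3aERKO, limma adjusted p = 0.227) and 0.41 ± 0.36 (Ex3bERKO, 0.841).

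Granulosa cell markers and theca and Leydig cell markers were lowest on the same arrays. Of 10 genes on that list, such as Inha, which encodes the inhibin α subunit, and Gja1, a gap junction protein of follicles, 6 fell in Ex3abERKO against control and none rose. Their summed level (log2) was 4.80 to 6.36 in Ex3abERKO and 6.74 to 8.38 in the other groups, and Ex3abERKO 1, the array with the highest Rasd1 and Greb1 of its group, was also highest in these markers. Of 8 theca and Leydig cell markers, 4 fell in Ex3abERKO against control (Cyp11a1, Hsd3b1, Lhcgr and Star, genes of steroid synthesis and its control) and 1 rose (Insl3). Their summed level was 6.27 to 7.17 in Ex3abERKO, again highest on array 1, and 7.87 to 8.72 on all other arrays. The part of granulosa, theca and Leydig cell content in the falls of Greb1 and Rasd1 was not tested. Of 11 measured glucocorticoid-induced genes, which share that hormone with Rasd1, 3 rose (Hsd11b1, Nr3c1 and Tsc22d3) and 3 fell (Dusp1, Fkbp5 and Mt1) in Ex3abERKO against control. In each single knockout, where Rasd1 was not called, Dusp1, Fkbp5 and Sgk1 fell. In Ex3aERKO 2 (Hsd11b1 and Klf15) also rose.

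**Figure D2:**
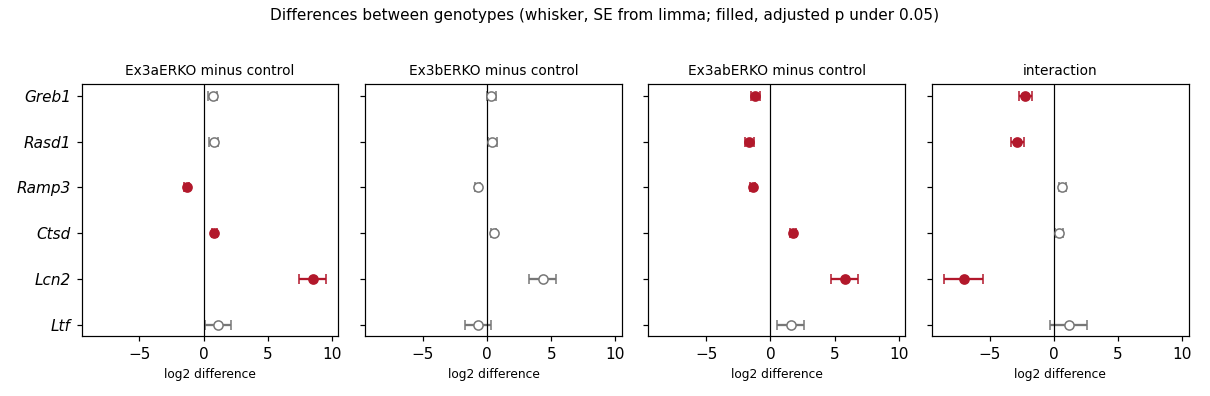
Log2 difference of each member from control in the 3 knockouts, and the interaction; whiskers are SE from limma and filled points passed an adjusted p of 0.05. Lcn2 has the largest differences, Ctsd is higher and Ramp3 lower in both Ex3aERKO and Ex3abERKO, and Greb1 and Rasd1 are called with negative values in Ex3abERKO and in the interaction.

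Ramp3 fell wherever ERα was knocked out, and was also lower in Ex3bERKO without being called. Its levels on arrays 1 to 4 were -0.27, -0.18, -0.43 and -0.63 for control, -1.42, -1.71, -1.81 and -1.79 for Ex3aERKO, -0.86, -1.50, -1.43 and -0.70 for Ex3bERKO and -1.85, -1.88, -1.48 and -1.83 for Ex3abERKO. All 12 knockout arrays lay below all control arrays, with Ex3bERKO split between arrays near the control and arrays near the ERα knockout. Ex3bERKO 1 and 4, the arrays near the control, both lay on slide 3, where Ex3aERKO 1 was at -1.42 and control 2 at -0.18. The fall was -1.30 ± 0.19 in Ex3aERKO (2.47-fold, limma adjusted p = 0.00117) and -1.38 ± 0.19 in Ex3abERKO (2.61-fold, limma adjusted p = 0.00028). Both calls held in all alternatives. Within slides the difference from control lay between -1.44 and -1.18 for Ex3aERKO on 4 slides and between -1.40 and -1.21 for Ex3abERKO on 3 slides. For Ex3bERKO it lay between -1.23 and -0.59 on 3 slides, largest on slide 1 and smallest on slide 3.

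In Ex3bERKO the Ramp3 difference was -0.74 ± 0.19 (1.67-fold, limma adjusted p = 0.0971), which was not called, although no array overlapped the control. With slide as a fixed block it was -0.89 (limma adjusted p = 0.0153), with slide as a random block -0.79 (0.0358) and without Ex3bERKO 4 it was -0.88 (0.0464), each past the threshold. Ramp3 was lower in Ex3abERKO than in Ex3bERKO by -0.64 (limma adjusted p = 0.036). This call was lost in 11 alternatives, among them slide as a fixed block (-0.35, limma adjusted p = 0.19) and leaving out Ex3bERKO 1 or 4 or Ex3abERKO 1, 2 or 4 (-0.62 to -0.50, limma adjusted p 0.0746 to 0.121). Within slides 1 and 4 it was 0.02 and -0.40. Ex3abERKO and Ex3aERKO differed by -0.08 ± 0.19 (limma adjusted p = 0.876), and the interaction was 0.66 ± 0.27 (0.238; with slide as a fixed block 0.95, adjusted p = 0.0366).

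Of the 8 genes of the RAMP family, its partner receptors and ligands, Ramp1, whose product pairs with the same receptor to bind calcitonin gene-related peptide, rose by 2.45 ± 0.52 in Ex3aERKO (5.45-fold, limma adjusted p = 0.0102) and by 1.89 ± 0.52 in Ex3abERKO (3.71-fold, limma adjusted p = 0.0179). The other 7 were not called against control. Ramp2, the other adrenomedullin-type accessory protein, differed by -0.53 in Ex3aERKO (limma adjusted p = 0.0719) and -0.05 in Ex3abERKO, and Calcrl, the receptor itself, by -0.13 and 0.24. Endothelial markers moved with Ramp3 in part: of 12, 8 fell in Ex3aERKO, among them Kdr, a receptor of vascular endothelial growth factor, and Pecam1, a junction protein, and 6 fell and 1 rose in Ex3abERKO. Their summed level was 5.22 to 5.74 on control arrays, 4.54 to 4.82 with ERα knocked out, 4.88 to 5.53 with ERβ knocked out and 4.79 to 5.17 with both. Oocyte markers also fell in both groups: of 8 measured, 7 fell in Ex3aERKO and 6 in Ex3abERKO against control, among them Zp3, a zona pellucida protein, and Gdf9, a growth factor of the oocyte. Their summed level lay between 4.01 and 5.14 on control arrays and between 4.18 and 5.89 on Ex3bERKO arrays, against 0.27 to 2.85 for Ex3aERKO and 2.30 to 3.06 for Ex3abERKO. The part of endothelial and oocyte content in the fall of Ramp3 was not tested.

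Ctsd rose in Ex3aERKO and further in Ex3abERKO. Its levels on arrays 1 to 4 were 6.10, 5.92, 5.55 and 6.04 for control, 6.67, 6.94, 7.08 and 6.31 for Ex3aERKO, 6.04, 6.89, 6.48 and 6.23 for Ex3bERKO and 7.62, 7.58, 7.60 and 7.79 for Ex3abERKO. On this representative probe the Ex3abERKO arrays lay above all others within a narrow range, and the Ex3aERKO arrays lay above all control arrays. The rise in Ex3abERKO was 1.75 ± 0.21 from control (3.35-fold, limma adjusted p = 0.000105) and 1.24 from Ex3bERKO (2.36-fold, limma adjusted p = 0.00155), and both held in all alternatives. The rise in Ex3aERKO was 0.85 ± 0.21 (1.80-fold, limma adjusted p = 0.0207).

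The Ex3aERKO call for Ctsd was lost without control 3, Ex3aERKO 2 or Ex3aERKO 3, each alone (0.73 to 0.79, limma adjusted p 0.0706 to 0.0772), and without the 3 arrays named above (0.83, adjusted p = 0.142). Ctsd was 0.90 higher in Ex3abERKO than in Ex3aERKO (1.86-fold, limma adjusted p = 0.017). That call was lost in 6 alternatives. Among them, the difference was 0.52 with quantile normalisation (limma adjusted p = 0.179) and 0.53 with normexp background correction and quantile normalisation (0.154). It was 0.72 with the mean of both probes (0.0905), 0.75 without Ex3aERKO 4 (0.055) and 0.98 without the 3 arrays (0.0651). In Ex3bERKO the difference from control was 0.51 ± 0.21 (limma adjusted p = 0.399) and the interaction 0.39 ± 0.29 (0.586). The second Ctsd probe correlated with the first at r = 0.904 over the 16 arrays and gave 1.01 for Ex3aERKO (adjusted p = 0.0687 over probes in limma) and 1.56 for Ex3abERKO (0.00294) against control. On that probe Ex3abERKO was not called against Ex3aERKO (0.55, adjusted p = 0.336 over probes in limma). Its Ex3abERKO range, 4.18 to 5.58, overlapped those of Ex3aERKO (4.19 to 4.88) and Ex3bERKO (3.61 to 4.73).

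Lysosomal genes and macrophage markers rose with Ctsd in Ex3abERKO. Of 26 other lysosomal genes, 19 rose and 1, the cathepsin Ctsf, fell (-1.05) against control, with a median difference of 1.03 against -0.105 over all features. Ctsb, a cysteine protease, rose by 1.30 (limma adjusted p = 0.000245) and Lamp1, a lysosomal membrane protein, by 0.82 (0.00412). In Ex3aERKO 3 of 26 rose, Ctsk and Npc1 among them, and none fell. Tfeb, the transcription factor of lysosomal genes, differed by 0.38 in Ex3abERKO (limma adjusted p = 0.444).

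All 16 macrophage markers rose in Ex3abERKO against control, and 4 rose in Ex3aERKO (Cd163, Cd68, Gpnmb and Mrc1). Their summed level was 5.97 to 6.57 on control arrays, 6.77 to 7.79 with ERα knocked out, 6.16 to 7.61 with ERβ knocked out and 8.16 to 8.47 with both. In Ex3bERKO, array 2 was highest both in Ctsd and in these markers. Ctsd is itself abundant in macrophages, and their part in its rise was not tested. Among the aspartic protease relatives of Ctsd, Napsa rose by 2.04 and Ctse by 0.66 in Ex3abERKO, and Bace2 fell by 1.79 (limma adjusted p = 0.0214).

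**Figure D3:**
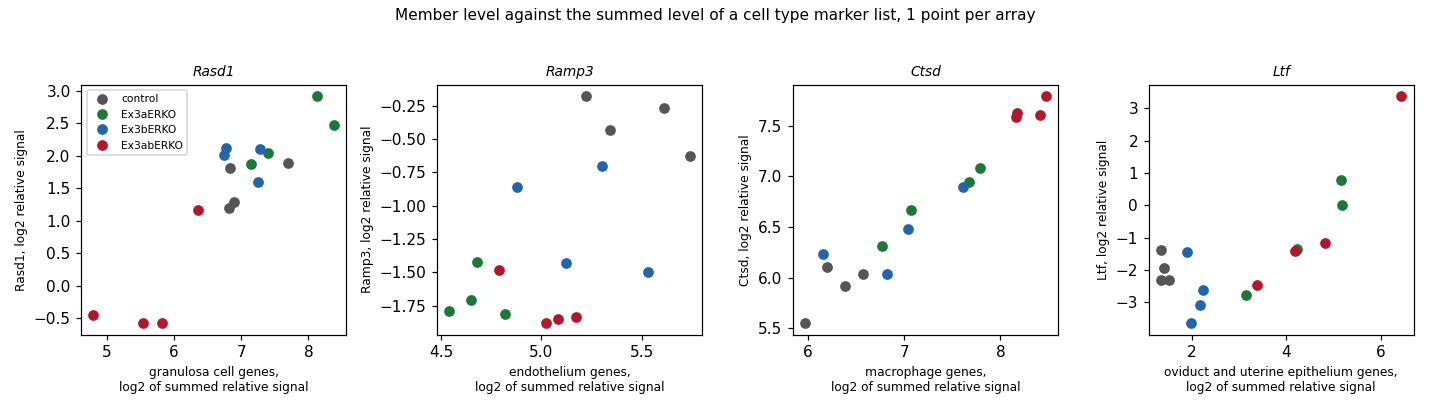
Level of Rasd1, Ramp3, Ctsd and Ltf (log2 relative signal) against the log2 summed relative signal of granulosa, endothelial, macrophage and oviduct or uterine epithelial markers, 1 point per array, coloured by group. Ctsd is highest on the arrays with most macrophage signal (8.16 to 8.47 in Ex3abERKO), and the Ltf maximum of 3.37 lies on the array with the highest epithelial signal, 6.44.

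Lcn2 had the largest differences of the members. Its levels on arrays 1 to 4 were -5.26, -5.21, -5.06 and -4.16 for control, 3.85, 3.66, 3.89 and 2.80 for Ex3aERKO, -3.01, 1.73, 2.42 and -3.57 for Ex3bERKO and -0.45, 1.89, 0.66 and 1.26 for Ex3abERKO. Every knockout array was above every control array, every Ex3aERKO array was above all others, and Ex3bERKO held 2 low and 2 high arrays. The rise was 8.48 ± 1.08 in Ex3aERKO (356-fold, limma adjusted p = 0.000448) and 5.77 ± 1.08 in Ex3abERKO (54.4-fold, limma adjusted p = 0.00181). Both calls held in all alternatives, but their size varied, from 7.24 to 8.73 in Ex3aERKO and from 4.52 to 6.2 in Ex3abERKO. The interaction was -7.03 ± 1.53 (limma adjusted p = 0.0218), and without the 3 arrays named above -7.59 (0.0767).

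The Ex3bERKO spread, which also enters the interaction, limited the other Lcn2 comparisons. Against control Ex3bERKO was 4.32 higher (19.9-fold, limma adjusted p = 0.0819), with an SD of 3.12 over its 4 arrays. Without Ex3bERKO 1 it was 5.12 (limma adjusted p = 0.0458) and without Ex3bERKO 4 it was 5.30 (0.0221). Both low arrays, Ex3bERKO 1 and 4, lay on slide 3, where Ex3aERKO 1 was at 3.85 and control 2 at -5.21. Within slides, Ex3bERKO was above control by 6.99 on slide 1, 1.92 on slide 3 and 7.48 on slide 4. With slide as a random block the difference was 4.49 (limma adjusted p = 0.0431). Ex3aERKO exceeded Ex3bERKO by 4.16 (limma adjusted p = 0.0636), and by 4.94 and 5.17 without Ex3bERKO 2 or 3 (0.021 and 0.0161). Ex3abERKO differed from Ex3aERKO by -2.71 (limma adjusted p = 0.152; 0.0296 in a fit of those groups alone) and from Ex3bERKO by 1.45 (0.408), although within slides 1 and 4 the latter was -1.06 and -1.16.

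The genes most like Lcn2 over the 16 arrays, of 18223 symbols compared, were Gsta3, a glutathione transferase, Insl3, a peptide hormone of Leydig and theca cells, and Ptgds, a prostaglandin D synthase of the same lipocalin family, each with r = 0.971. Insl3 lay at 0.42, 5.65, 6.23 and -0.41 in Ex3bERKO, low on the same arrays as Lcn2. Lcn2 is also a neutrophil granule gene. Of 14 measured neutrophil markers, 1 (Mmp9) rose in Ex3aERKO, where Lcn2 was highest, and 6 rose in Ex3abERKO, among them S100a8 and S100a9, subunits of calprotectin. The summed neutrophil level was -0.14 to 2.20 on control arrays, 0.79 to 3.55 with ERα knocked out, 0.28 to 0.78 with ERβ knocked out and 1.96 to 4.70 with both, and Ngp, a granule marker, was well above background on 4 of 16 arrays. The part of neutrophil content in Lcn2 was not tested. Of 15 acute phase and NF-κB response genes, the other setting in which Lcn2 is induced, 3 rose and 1 fell in Ex3aERKO and 8 rose and 1 fell in Ex3abERKO. Lrp2, a receptor that takes up lipocalin 2, rose by 1.72 in Ex3aERKO (limma adjusted p = 0.0108) and by 1.30 in Ex3abERKO (0.0214), whereas Slc22a17, its other receptor, was not called (-0.16 and -0.59).

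Surface epithelium markers also moved in the groups with high Lcn2. Of 10, 4 rose in Ex3aERKO and 4 in Ex3abERKO, with Cdh1, Krt7 and Upk3b in both. Their summed level was 4.04 to 4.56 on control arrays, 4.86 to 6.50 with ERα knocked out, 4.16 to 6.24 with ERβ knocked out and 5.24 to 6.03 with both. Lowest in Ex3bERKO was array 4 (4.16), also the lowest in Lcn2. Array 1, the other array low in Lcn2, was at 5.33, close to the 5.47 of array 2, which was high in Lcn2. Theca and Leydig cell markers were mixed where Lcn2 was highest. Of 8, 3 rose (Cyp17a1, Hsd17b3 and Insl3) and 2 fell (Cyp11a1 and Star) in Ex3aERKO against control. Their summed level was 8.03 to 8.37 in Ex3aERKO and 8.19 to 8.72 on control arrays. The part of epithelial and interstitial cell content in the rise of Lcn2 was not tested.

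Ltf was called in no comparison, at a spread within the knockout groups of 0.93 to 2.58 (SD). Its levels on arrays 1 to 4 were -1.95, -1.37, -2.31 and -2.30 for control, -1.36, 0.02, 0.77 and -2.78 for Ex3aERKO, -3.64, -2.61, -3.07 and -1.45 for Ex3bERKO and -2.46, 3.37, -1.16 and -1.40 for Ex3abERKO. The groups overlapped, and Ex3abERKO 2 alone exceeded 1. The difference from control was 1.14 ± 1.03 in Ex3aERKO (limma adjusted p = 0.629), -0.71 ± 1.03 in Ex3bERKO (0.947) and 1.57 ± 1.03 in Ex3abERKO (0.317). Without Ex3abERKO 2 the last difference was 0.31 (limma adjusted p = 0.835). The largest difference, 2.28 between Ex3abERKO and Ex3bERKO, had a limma adjusted p of 0.151. It was 1.02 without Ex3abERKO 2 (limma adjusted p = 0.406) and 3.33 with array weights (0.0445), the only alternative in which a Ltf difference was called. Both Ltf probes gave the same picture, with r = 0.998 over the arrays.

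Of 12 oviduct and uterine epithelial markers, 3 rose in Ex3aERKO and 5 in Ex3abERKO against control, and none fell. Ex3abERKO 2 was the highest array in their summed level, 6.44, with the oviductal glycoprotein Ovgp1 at 5.43 and the ciliated cell factor Foxj1 at 1.95. On the other 15 arrays Ovgp1 was at most 1.97 (Ex3aERKO 3) and Foxj1 at most -0.10 (Ex3aERKO 2), and these were the arrays with the next highest Ltf. The summed level was 1.35 to 1.53 on control arrays, 3.14 to 5.18 with ERα knocked out, 1.90 to 2.25 with ERβ knocked out and 3.39 to 6.44 with both. In Ex3bERKO these markers were above the control on every array, while the Ltf difference was -0.71 and not called, and array 4, with the highest Ltf of that group, was lowest in them (1.90). The summed level of the neutrophil markers was 3.11 on Ex3abERKO 2 and 3.55 on Ex3aERKO 2, and was highest on Ex3abERKO 3, at 4.70. The part of oviduct epithelial, uterine epithelial or neutrophil content in Ltf was not tested. Transferrin (Trf), the relative of Ltf that carries iron in blood, rose by 2.36 in Ex3aERKO (limma adjusted p = 0.0135) and by 2.55 in Ex3abERKO (0.00363).

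Other estrogen response genes also moved both ways. Of 28 listed, 27 were measured; Pgr, the progesterone receptor, was well above background on fewer than 4 arrays. In Ex3abERKO 5 rose and 5 fell against control, with a median of 0.03 against -0.105 over all features. Oxtr, the oxytocin receptor, fell by 4.45 (21.8-fold, limma adjusted p = 5.86e-05), Ihh, a hedgehog ligand made by granulosa cells, by 3.38 (10.4-fold, 0.00593) and Vegfa, the vascular growth factor, by 2.48 (5.59-fold, 5.86e-05). Complement C3, a uterine estrogen target, rose by 4.36 (20.6-fold, limma adjusted p = 0.000126) and Aqp5, a water channel, by 2.53 (5.76-fold, 0.000366).

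In Ex3aERKO 3 of these 27 rose (Areg, an EGF-family ligand, by 4.32, C3 by 3.41 and Bcl2 by 0.70) and 3 fell (Oxtr by 2.66, Vegfa by 1.62 and Myc by 1.31). In Ex3bERKO Vegfa alone was called, at -1.22 (limma adjusted p = 0.0423), while Oxtr, at -2.11, just missed (0.0504). Vegfa and Oxtr thus had the same sign as Ramp3 in all 3 knockouts, and C3 the same sign as Lcn2. Such shared signs were common on the list, though not all differences were called. Myc, Wnt4, Cited2, Cxcl12 and Ihh were also lower in all 3, and others, such as Igf1, Bcl2 and Aqp5, higher. No interaction was called on this list in limma, with 7 genes at an unadjusted p under 0.05.

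**Figure D4:**
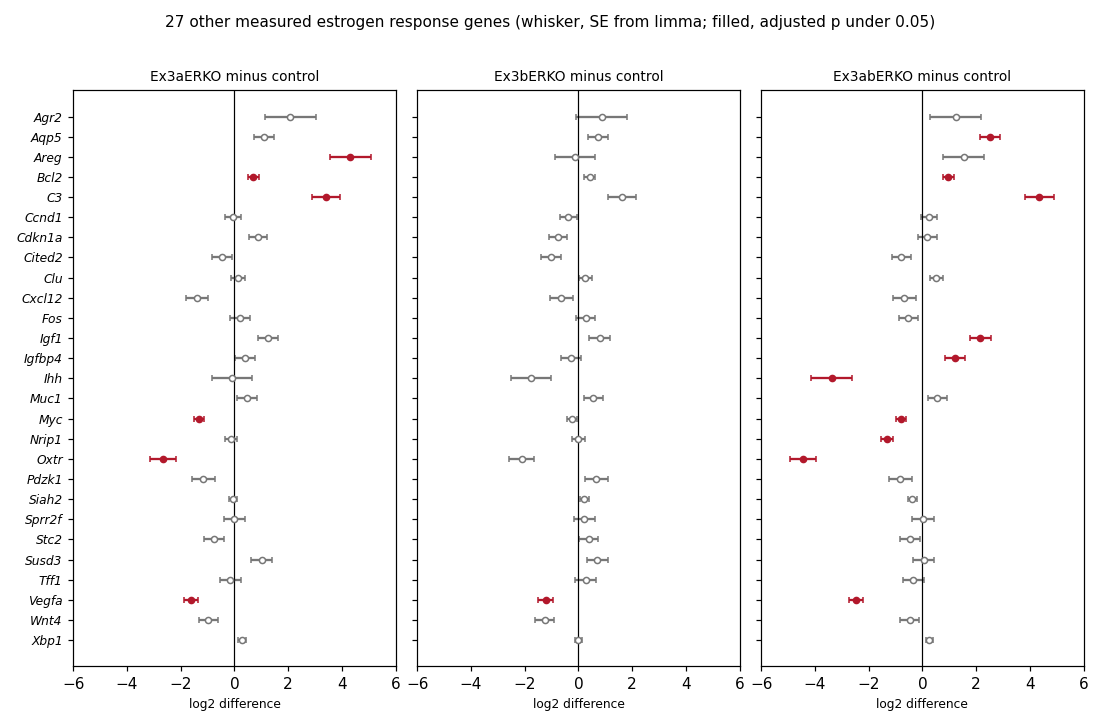
Log2 difference from control of 27 other estrogen response genes in each knockout; whiskers are SE from limma and filled points passed an adjusted p of 0.05. Filled points lie on both sides of 0 in Ex3aERKO (3 higher, 3 lower) and in Ex3abERKO (5 and 5), and Vegfa is the single filled point in Ex3bERKO.

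Of 8 measured genes for the estrogen receptors and the estrogen supply, 2 rose and 2 fell in Ex3aERKO against control, 1 fell in Ex3bERKO, and 1 rose and 3 fell in Ex3abERKO. Cyp19a1, the aromatase that makes estrogen, rose by 3.17 in Ex3aERKO (9.02-fold, limma adjusted p = 0.00491), differed by 1.10 in Ex3abERKO (0.216) and was lower in Ex3abERKO than in Ex3aERKO (-2.07, adjusted p = 0.0485). Sult1e1, the sulfotransferase that inactivates estrogen, rose by 6.50 in Ex3aERKO (90.5-fold, limma adjusted p = 0.00494) and by 5.15 in Ex3abERKO (35.6-fold, 0.008). Hsd17b7, an estradiol-making enzyme of luteal cells, fell in all 3 knockouts, by 3.30, 3.88 and 4.07. No hormone level was measured.

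Among the members themselves, levels over the 16 arrays were most alike for Greb1 and Rasd1 (r = 0.84, but 0.38 within groups) and most opposed for Ramp3 and Lcn2 (r = -0.90, and -0.76 within groups) and for Ramp3 and Ctsd (r = -0.82, and -0.46 within groups). These correlations are descriptions over arrays that share the same groups. Within Ex3bERKO, arrays 1 and 4, both on slide 3, were lowest in Lcn2 and highest in Ramp3. The SD of Lcn2 in that group was 3.12, the largest of the groups, so this split weighs on the within-group value for Ramp3 and Lcn2. The genes most like Ctsd were Ctsb, another lysosomal protease (r = 0.991), the transporter Slc22a4 (0.991) and the lysosomal membrane protein Gpr137b (0.988). Nearest to Greb1 were Opn3 (r = 0.922), Coasy (0.892) and Leng9 (0.891), and nearest to Rasd1 were Anapc7 (0.926), Rnf185 (0.909) and Btd (0.902). Nearest to Ramp3 were B230208H11Rik (r = 0.949), Blmh (0.944) and Fbxl7 (0.915). Nearest to Ltf were Slc44a4 (r = 0.867), Cdh16 (0.864) and Ap3b2 (0.856), whose Spearman values of 0.621, 0.594 and 0.576 were lower.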

How the data were processed

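Total RNA of 16 whole-ovary samples was measured on single-colour Agilent arrays. The deposited intensity values came from Agilent Feature Extraction 9.5, per the submitters' processing notes and the file headers, with background subtracted and no normalization between arrays; the authors' value table held the same linear intensities (658784 of 658784 values within 0.0001; column medians 149.5 to 252.7). The log2 of each spot was taken relative to the array's 75th percentile over 43379 non-control spots; outlier spots (54 to 106 per array) were left out, saturated ones (0 to 7) kept, and spots of a probe averaged. Probes well above background on at least 4 of 16 arrays were kept, and the brightest represented a gene. Probes were named by accession or symbol through RefSeq genes of GRCm38.p6; 8455 of 41174 had no name. limma 3.58.1 (R 4.3.3; lmFit and eBayes, 12 residual degrees of freedom, two-sided) was fitted over 24435 features for 7 comparisons and tested on simulated data. The members, the 8 pathway and 14 marker lists and the tests were chosen with earlier results of these data known. Named were all members, the 3 genes most correlated with each, family or partner genes, and some of the most changed called genes per list and comparison. Other list genes named as examples, such as Tfeb, Lamp1, Kdr, Ngp, Ovgp1 and Foxj1, were chosen after their values were seen. The number of arrays limits the precision. Alternatives covered normalization, scaling, filters, probe choice, slides, array weights, the replicate number and left-out arrays.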

Additional observations from a re-analysis of the deposited data

Results flagged for a closer look

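In Ex3abERKO, Rasd1 on array 1 (1.17) lay far from the other 3 arrays, with a gap of 0.929 of the group's range, and Ramp3 on array 3 (-1.48) likewise, with 0.864; 24 groups were examined, and chance flags about 1 in 20. The step from Ex3aERKO to Ex3abERKO differed from the step from control to Ex3bERKO, by the interaction term in limma, for Greb1 (-2.22), Rasd1 (-2.85) and Lcn2 (-7.03), with the adjusted p-values given above.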

How the results depend on the processing

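Over 42 gene results and 29 alternatives, 1151 of 1212 values kept direction and side of the threshold, 37 lost a call, 16 gained one and 8 uncalled values changed sign; of 18 calls, 11 were never lost and 0 reversed. Members called in Ex3bERKO against control went from 0 to 2 with array weights, 1 with slide as a fixed block and 2 as a random block, and were 0 to 2 when single arrays were left out. Between the single knockouts the count went from 0 to 1 with array weights, with normexp and with trended, robust eBayes, and was 0 to 1 when single arrays were left out. The sign changed for Ctsd in the interaction (-0.08 with normexp, -0.06 with quantile normalisation), for Ramp3 between Ex3abERKO and Ex3aERKO (0.07 with slide as a fixed block, and -0.17 to 0.01 when single arrays were left out, the highest without Ex3aERKO 1), for Ltf between Ex3abERKO and Ex3aERKO (-0.55 without 3 arrays, and -0.83 to 1.11 when single arrays were left out, below 0 without Ex3aERKO 4 at -0.22 and without Ex3abERKO 2 at -0.83) and for Ltf in the interaction (-0.12 to 1.82 when single arrays were left out, the lowest without Ex3abERKO 2). The cause was not tested. Pairs with the same replicate number were about as alike as other pairs. Of same-numbered pairs, 7 of 24 had a correlation of deviations over 0.1, against 19 of 72 differently numbered pairs. The medians were -0.0686 and -0.0266. Both sets hold pairs from the same slide, so these values cannot settle whether replicate numbers pair the samples. With the replicate block, members called were 3 in Ex3aERKO, 0 in Ex3bERKO and 5 in Ex3abERKO against control, and Ramp3 between Ex3abERKO and Ex3bERKO was no longer called (-0.64, limma adjusted p = 0.0576). The interaction could not be fitted from only the groups compared, since it uses all 4. All member probes were well above background on all 16 arrays, but the size of the Lcn2 rises varied over the alternatives, as given above.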
